A study of Mus musculus with 1086 samples.

Results

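Cwc22 (ENSMUSG00000027014) is 1 of the 17144 genes measured in livers of Diversity Outbred (DO) mice aligned to individualized genomes, of the 17135 genes measured in the same animals aligned to the NCBIM37 reference, and of the 24965 genes measured in their founder strains. It was chosen by its measured mRNA level, which in WSB males differed from that in every other founder strain, so its strain levels are given as a description with no test. The annotation used for names (GENCODE M21, assembly GRCm38) places it on the minus strand of chromosome 2. DO reads were aligned to NCBIM37 and to individualized genomes, and founder reads to strain genomes, so no coordinates are given.

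Cwc22 is a spliceosome-associated protein that binds Eif4a3, the RNA helicase of the exon junction complex. It helps to deposit that complex on spliced mRNA, where the complex marks exon junctions for export, translation and nonsense-mediated decay. In mice the gene lies within a segment of chromosome 2 known as R2d, which is present in many extra copies (R2d2) on the WSB/EiJ chromosome and is known for its unequal transmission when carried by DO mothers. Copy number was not measured here.

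Liver mRNA was sequenced as 100-base single-end reads in 277 DO mice and 128 founder males. DO mice are an outbred stock in which each animal carries its own mosaic of the genomes of the 8 founder strains. From weaning to 26 weeks of age they were fed standard chow (6% fat by weight) or high-fat chow (22% fat by weight). Chow was fed to 73 females and 68 males, and the high-fat diet to 70 females and 66 males. The labels also put each DO animal in block 1 (92 animals) or block 2 (185 animals). Animals had 2 to 3 sequencing runs each in block 1 and 4 in block 2, on different flowcells. Runs and flowcells therefore cannot be told apart from block, and the sources used here do not say what else the blocks stand for. The founders were WSB/EiJ (WSB), PWK/PhJ (PWK), C57BL/6J (B6), NZO/HILtJ (NZO), CAST/EiJ (CAST), A/J (AJ), 129S1/SvImJ (129S1) and NOD/ShiLtJ (NOD). Each strain had 8 males on each diet, 26 weeks old, or 20 weeks in NZO. The labels describe the founder diets in 2 ways, as 17% against 45% of kcal from fat and as the diets of the DO mice, and the labels do not settle which applied. DO livers were kept in RNAlater at the Jackson Laboratory and founder livers were snap frozen in Wisconsin, per the labels, so site and storage cannot be told apart from stock. Cwc22 recovered counts, the deposited values divided by the smallest step between values, ran from 45.5 to 4289 per founder male (median 106.5) and from 292 to 74670 per DO animal in the NCBIM37 table (median 20322). All 6 hepatocyte markers were present in both sets of tables, with a lowest summed signal of 1154 in the DO and 2577 in the founders. A higher level in whole liver cannot be told apart from a larger share of the cells that express the gene.

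Reads from Cwc22 can also come from near-copies of it elsewhere on the chromosome. In GENCODE M21, 7 genes of 1 array on chromosome 2 (Gm13691 and Gm13693 to Gm13698) each share 512 stretches of 100 bases, the length of a read, with the 13 annotated Cwc22 transcripts, 7.14% of the 7168 such stretches that Cwc22 has. Of these 7 genes the tables hold Gm13691 (ENSMUSG00000079247) by its identifier. The Gm13691 transcript of 2493 bases aligned to the Cwc22 transcript of 3471 bases over 2474 bases with 98.4% identity, 39 substitutions and 5 gaps. The aligned part ran from base 391 to base 2885 of that Cwc22 transcript, within its 2724 coding bases (391 to 3114). All 39 substitutions therefore lie in coding bases, and bases outside the aligned part were not compared. A stretch of 199 coding bases is shown 5′ to 3′ from the GENCODE M21 transcripts, because it holds both an identical run longer than a read and a cluster of substitutions. Capitals mark the 8 bases that differ. It starts at base 519 and ends at base 717 of the Cwc22 transcript, counted from 1 at the 5′ end.
Cwc22: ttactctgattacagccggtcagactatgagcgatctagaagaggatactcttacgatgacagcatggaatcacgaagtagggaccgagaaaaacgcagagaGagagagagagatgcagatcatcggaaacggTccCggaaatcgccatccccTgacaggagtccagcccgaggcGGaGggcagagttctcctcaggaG
Gm13691: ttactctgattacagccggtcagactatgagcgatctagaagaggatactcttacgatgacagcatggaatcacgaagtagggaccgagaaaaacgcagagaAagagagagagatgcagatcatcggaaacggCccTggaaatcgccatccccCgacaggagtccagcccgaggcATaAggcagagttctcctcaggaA
The part before the first capital is identical and longer than a read, so a read that falls within it cannot be assigned to either gene by sequence. Cwc22 also shares 88 stretches of 100 bases with Gm13727, a neighbouring transcript on the same strand. Cwc22 values may therefore hold reads of these relatives, and the identical part leaves their origin uncertain.

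Among founders, Cwc22 mRNA was abundant in WSB and low in the other 7 strains. The deposited signal had a median of 29.6 in the 8 WSB males on chow (24.8 to 35.5) and 31.6 in the 8 on high fat (26.9 to 36.7). The males of the other 7 strains lay between 0.461 and 1.60. No WSB male overlapped them, and the lowest WSB male was 15.5-fold above the highest of the others. The WSB median over both diets, 30.3, was 33.6-fold the median of the other 7 strain medians. By median signal, not scaled here for length, Cwc22 ranked 282nd of 24965 genes in WSB males and 6543rd in the males of the other strains. Rescaling each animal to genes held by the founder and NCBIM37 tables gave 33.3-fold.

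The other 7 strains spanned 1.54-fold in their medians. The order from low to high was PWK (0.656), B6 (0.820), NZO (0.890), CAST (0.902), AJ (0.927), 129S1 (0.981) and NOD (1.01), each a median of 16 males. Every pair of neighbours in this order had overlapping ranges, and only the step from NOD to WSB had none. In PWK, the lowest strain, males ran from 0.461 to 0.921, and in NOD from 0.759 to 1.38, so even the ends of the order overlapped. The spread within a strain, as SD over mean, was 10.1% in WSB and between 10.6% and 23.2% in the others (n = 16 each).

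**Figure D1:**
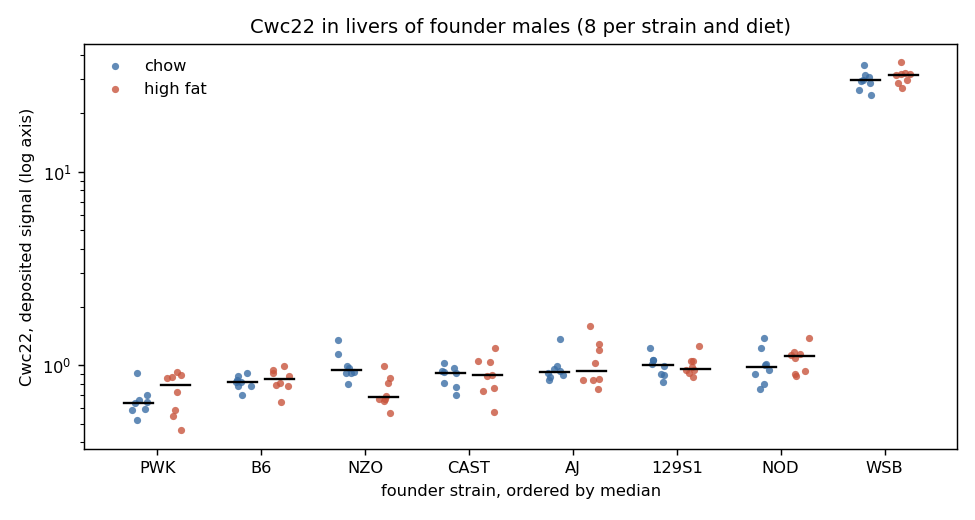
Deposited Cwc22 signal on a log axis (vertical) for each founder male by strain and diet (horizontal), with 8 points per group and a bar at the group median. All 16 WSB males sit at 24.8 or more, and the males of the other 7 strains at 1.60 or less.

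Diet made no detectable difference to Cwc22 in the founders as a whole. Averaged over strains, high fat minus chow was 0.00 ± 0.04 (log2 of count equivalents plus 1, SE; n = 64 against 64 males; limma adjusted p = 0.986), in a contrast that called 23.2% of 13536 genes. The 1 strain that passed alone was NZO, where 17.5% of genes were called. NZO males had signals of 0.800 to 1.35 on chow (median 0.944) and 0.565 to 0.996 on high fat (median 0.684). High-fat NZO males lay lower, with overlapping ranges, and the log2 change was -0.44 ± 0.12 (limma adjusted p = 0.00662). In the other 7 strains the change lay between 0.00 and 0.13 with an SE of 0.12 each, and no adjusted p was below 0.627. These contrasts called 1.44% of genes in 129S1, 0.133% in AJ, 3.15% in B6, 1.17% in CAST, 1.36% in NOD, 2.7% in PWK and 5.3% in WSB. Their medians on chow and high fat were 1.00 and 0.962 in 129S1, 0.927 and 0.939 in AJ, 0.820 and 0.849 in B6, 0.917 and 0.887 in CAST, 0.979 and 1.11 in NOD and 0.642 and 0.792 in PWK. Ranges on the diets overlapped in each of these strains. In WSB, the strain with the high level, the change was 0.07 ± 0.12 (limma adjusted p = 0.803). The test of whether the diet change differed among strains did not pass (limma F-test, p = 0.0328, adjusted p = 0.159, with 8.37% of genes called), so a response particular to NZO was not shown. NZO males were also 20 weeks old on both diets, and their recovered totals had medians of 8.06 M counts on chow and 8.24 M counts on high fat. Of 26 cell type marker genes tested in the NZO contrast, 1 rose and 3 fell, beside 10.1% and 7.4% of all genes, and their part in the result was not tested.

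DO animals carried Cwc22 levels from both ends of the founder scale. In the NCBIM37 table the signal ran from 0.327 to 47.2 with a median of 13.8, a 144.2-fold range. The lowest 40.1% of animals lay between 0.327 and 1.62. The next lay at 2.87, a step of 1.77-fold, and the one after at 5.59, a step of 1.95-fold, both among the widest steps between neighbours. Above 1.62 stood 59.9% of animals. Of these, 8 lay between 2.87 and 10, 31 lay between 29.5 and 47.2 and the rest between 10 and 27.1, with none between 27.1 and 29.5. The values therefore fell into a low clump and a broad upper run rather than a single continuous spread.

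Levels set across the founder and DO tables depend on the scaling, since the tables were normalized separately. They also differ in alignment, to NCBIM37 for these DO values and to strain genomes for the founders. What part the alignment plays in the shares below was not tested. On the deposited scale, 39.7% of the 277 DO animals lay at or below the highest male of the 7 other strains (1.60), 13.7% lay at or above the lowest WSB male (24.8) and 46.6% lay between. After each animal was rescaled to the 17011 genes held by both tables, those limits became 0.804 and 13.2, and the shares became 9.03%, 51.6% and 39.4%. The highest WSB male lay at 19.7 on that scale, and the highest DO animal at 46.7. On either scale DO animals reached levels above all 16 WSB males.

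**Figure D2:**
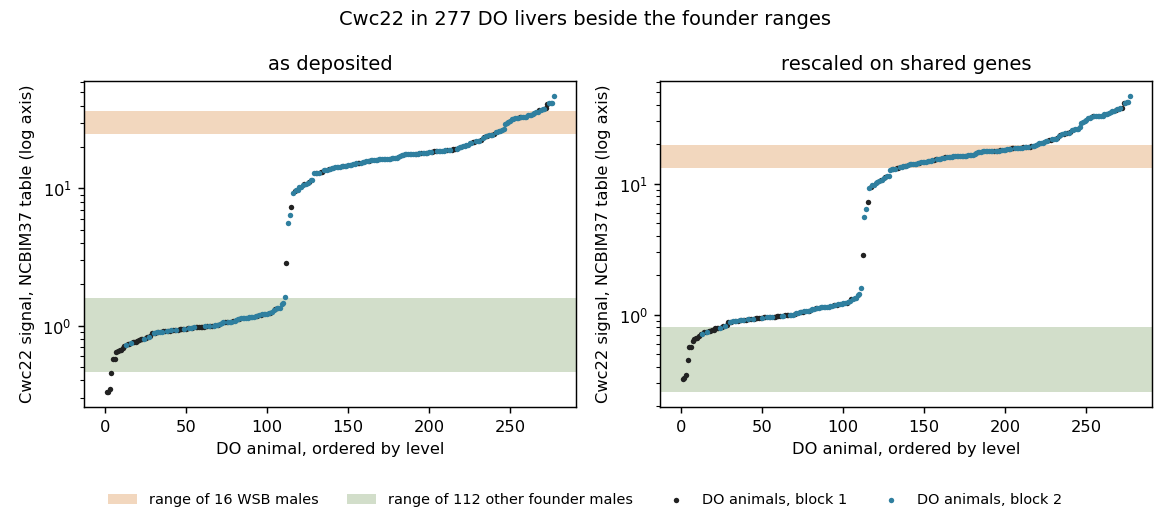
Cwc22 signal in the NCBIM37 table on a log axis (vertical) for 277 DO animals ordered by level (horizontal), as deposited (left) and rescaled on shared genes (right). Shaded bands are the ranges of 16 WSB males and of the males of the other 7 strains, aligned to strain genomes. On both scales 40.1% of animals lie below the gap, whereas the bands shift.

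Both alignments gave nearly the same picture of Cwc22. The individualized signal ran from 0.829 to 134.4 with a median of 36.9, and its ratio to the NCBIM37 signal was 2.69 at the median, between 2.29 and 3.36 over the 277 animals. Both tables come from the same animals' reads and were scaled differently, so this ratio is not a fold change. All 277 animals fell on the same side of the gap in both tables, which in the individualized table lay between 4.30 and 8.20. Pearson's r of log2 values was 0.981 among the animals below the gap (Spearman's rho 0.979) and 0.998 among those above it (rho 0.994), given as a description of values from shared reads. Centred on each animal's median gene, Cwc22 was higher in the individualized table by 0.04 on the log2 scale at the median (-0.17 to 0.32), and higher in 223 animals. Of 16034 genes compared, 94.1% had a lower median difference, and the central 95% of genes lay between -0.28 and 0.05. Individualized alignment thus moved Cwc22 by much less than animals differed.

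**Figure D3:**
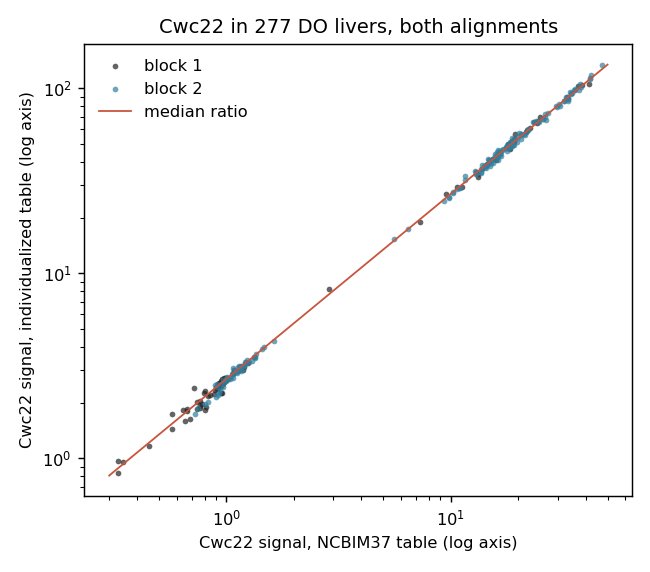
Cwc22 signal of each DO animal in the individualized table (vertical, log axis) against the NCBIM37 table (horizontal, log axis), coloured by block. The 277 animals lie along the line of the median ratio, 2.69, over the whole range.

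Cwc22 was higher in block 2 than in block 1 of the DO animals. In the individualized table the signal in block 1 had a median of 2.69 (0.829 to 105.2; n = 92) and in block 2 of 42.5 (1.74 to 134.4; n = 185). The ranges overlapped almost completely, while 37.0% of the 92 block 1 animals and 71.4% of the 185 block 2 animals lay above the gap. Block 2 minus block 1 was 1.72 ± 0.26 (log2, SE; limma adjusted p = 3.86e-09), in a contrast that called 47.9% of 16738 genes. A permutation test of Cwc22 percentile ranks within sex and diet gave a difference of 23.5 points (two-sided p = 1e-05, the smallest that 100000 resamples can give). The log2 difference was smaller with count models of recovered units, at 1.07 by edgeR (adjusted p = 9.44e-05) and 1.07 by DESeq2 (adjusted p = 2.41e-06), and 1.06 by edgeR in the NCBIM37 table (adjusted p = 8.32e-05). Recovered totals in the NCBIM37 table had a median of 66.8 M counts in block 1 (41.0 to 148.9) and 70.2 M counts in block 2 (34.3 to 184.2). Of 30 cell type marker genes tested for block, 10 were higher and 8 lower in block 2, beside 22.9% and 25% of all genes. Higher were 4 of 5 macrophage genes (median 0.44) and 4 of 4 endothelial genes (median 0.40), and lower were 3 of 3 red cell genes (median -1.92) and 2 of 4 cholangiocyte genes (median -0.15). Their part in the Cwc22 difference was not tested.

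Sex made no detectable difference to Cwc22. In the individualized table chow females ran from 1.74 to 113.8 with a median of 40.3 (n = 73), and high-fat females from 1.43 to 97.6 with a median of 31.2 (n = 70). Chow males ran from 1.84 to 134.4 with a median of 47.0 (n = 68), and high-fat males from 0.829 to 118.2 with a median of 34.4 (n = 66). All 4 groups spanned low and high animals, and 46 of 73, 41 of 70, 40 of 68 and 39 of 66 animals, in that order, lay above the gap. Male minus female was 0.06 ± 0.25 (log2, SE; limma adjusted p = 0.838), where 62.9% of genes were called. The diet change did not pass as differing between sexes, at 0.05 ± 0.49 (limma adjusted p = 0.967), where 8.9% of genes were called.

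The diet comparison in the DO depended on the block. Over both blocks, high fat minus chow was -0.31 ± 0.25 (log2, SE; limma adjusted p = 0.274), in a contrast that called 58.9% of genes. Count models of recovered units gave -0.39 by edgeR (adjusted p = 0.1125) and -0.39 by DESeq2 (adjusted p = 0.0757), and neither passed. The permutation test of percentile ranks, which weights the blocks equally, gave -12.4 points (two-sided p = 0.0006). In block 1 the medians were 3.11 on chow (1.83 to 105.2; n = 47) and 2.42 on high fat (0.829 to 66.8; n = 45), and 21 of 47 chow animals (44.7%) and 13 of 45 high-fat animals (28.9%) lay above the gap. In block 2 they were 43.5 on chow (1.74 to 134.4; n = 94) and 41.3 on high fat (up to 118.2; n = 91), with 65 of 94 (69.1%) and 67 of 91 (73.6%) above it. The ranges of chow and high-fat animals overlapped in both blocks. Fitted alone, block 1 gave -1.29 ± 0.44 (limma adjusted p = 0.00937) and block 2 gave 0.17 ± 0.29 (limma adjusted p = 0.659). The difference between the blocks' diet changes was 1.47 ± 0.52 (limma adjusted p = 0.0180), a contrast added after the values of each block were seen, in which 35.1% of genes were called. Of the 30 marker genes 2 had a higher and 14 a lower diet change in block 2, beside 16.4% and 18.7% of all genes, and their part in the Cwc22 result was not tested. Genotype at the locus was not analysed here.

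**Figure D4:**
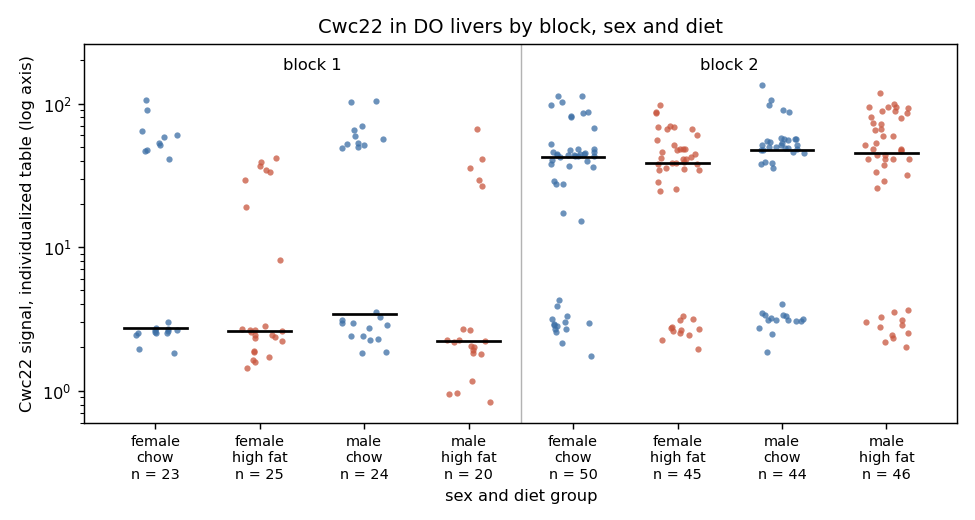
Cwc22 signal in the individualized table on a log axis (vertical) for each DO animal by block, sex and diet (horizontal), with a bar at the group median. Every group holds low and high animals, and the bar lies at 2.20 to 3.41 in the block 1 groups and at 38.6 to 47.6 in the block 2 groups.

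Gm13691, the near-copy held by the tables, was the gene with a symbol whose pattern was most like that of Cwc22. Likeness was Spearman's rho over the 277 DO animals in the individualized table after removing the mean of each sex, diet and block cell, among 16737 other genes. The median gene had a rho of -0.002 and the central 95% lay between -0.141 and 0.147. The 14 highest, with rho between 0.981 and 0.984, were Gm13691 (0.984; 0.986 in the NCBIM37 table) and 13 identifiers with no symbol in the annotation, and these include the 5 highest. Of these, 5 held exactly the values of Gm13691 in every animal of all 3 tables, and 6 others held values identical to each other in the individualized table, so they are not independent measurements. Because the DO animals were clumped, a rho over all animals mixes the clump with the order inside it. Without removing cell means, the rho of Gm13691 with Cwc22 was 0.587 among the animals below the gap and 0.982 among those above it.

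The signal assigned to Gm13691 alone was a small share of that assigned to Cwc22, with neither scaled here for transcript length. In the NCBIM37 table it ran from 0.00355 to 3.67 with a median of 1.07, or 7.71% of the Cwc22 signal at the median animal (1.03% to 14.3%). The 13 identifiers without a symbol had medians of 1.06 to 1.38 each in that table. The share of all 14 together is therefore larger and was not computed. In the founders the Gm13691 signal was highest in WSB, from 0.0392 to 0.0978 with a median of 0.0834, or 0.263% of Cwc22 (0.148% to 0.351%). The highest male of the other strains lay at 0.0334, in CAST, and 79 of those males were listed at 0. In the second set, of 6 identical identifiers, the 1 examined had a median of 1.49 in WSB (1.28 to 1.92) and 0.108 in CAST. It had at most 0.00484 in the 6 remaining strains. DO and founder tables were made separately, so the percentages are side by side and were not compared.

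Several annotated genes far from Cwc22 tracked it next, chosen for mention after their values were seen. Il1f9 (rho 0.922), which encodes a cytokine of the interleukin-1 family, lies on chromosome 2 in GRCm38. Gm11851 (0.916) and Gm11261 (0.896) are annotated on chromosome 4, Gm15983 (0.846) and the secreted glycoprotein gene Fstl1 (0.790) on chromosome 16. No exact 30-base stretch of their annotated transcripts is shared with Cwc22 on either strand. Stretches with mismatches and bases outside annotated transcripts were not compared. Il1f9 had a median of 0.762 in WSB males (0.464 to 0.941), against strain medians of 0.0153 to 0.0662 elsewhere with a highest male of 0.242. Gm11851 had a median of 0.546 in WSB (0.372 at the lowest), against strain medians of 0.0201 to 0.0681. Neither overlapped between WSB and the other strains, and the share of all genes without such overlap was not counted. Signals outside WSB were near the floor, and in CAST 3 of 16 males were listed at 0 for Il1f9 and 4 of 16 for Gm11851. Gm11261 did overlap (WSB from 0.499, PWK up to 0.738), as did Gm15983 (WSB from 0.536, NZO up to 0.681). Fstl1 also overlapped, with medians of 0.706 in WSB and 0.717 in PWK. Without removing cell means, the rho with Cwc22 among the DO animals above the gap was 0.889 for Il1f9 and 0.849 for Gm11851. Among those below it, the values were -0.062 and -0.001. Their signals thus followed that of Cwc22 inside the upper run, and their rho was near 0 inside the low clump.

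Genes with the most opposite pattern all lay on chromosome 2. The 5 lowest were Ube2l6 (rho -0.766; -0.665 in the NCBIM37 table), Itgav (-0.443; -0.561), Them7 (-0.361; -0.360), Chn1os3 (-0.334; -0.389) and Mettl8 (-0.333; -0.440), and the same 5 were lowest in the NCBIM37 table. Ube2l6, a conjugating enzyme for the ubiquitin-like protein Isg15, is annotated 28 measured genes from Cwc22 in GRCm38. Its signal in WSB males had the lowest median of the 8 strains, 1.62 (0.976 to 2.21), against 2.88 to 4.80 elsewhere, with overlap between WSB and both CAST (1.57 to 4.30) and 129S1 (2.20 to 4.38). Itgav, an integrin subunit gene 15 measured genes away, was not low in WSB, where its median was 1.97 (1.56 to 2.54) against 1.76 to 2.19 elsewhere. Within the sides of the gap, without removing cell means, the rho of Itgav with Cwc22 was positive, 0.456 among the lower and 0.424 among the upper animals. That of Ube2l6 was -0.435 and -0.430. The rho over all animals was taken after removing cell means, so it is an unlike measure. Of the 50 annotated genes with the largest absolute rho, 39 lay on chromosome 2, which holds 8.45% of the 15749 annotated genes ranked.

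**Figure D5:**
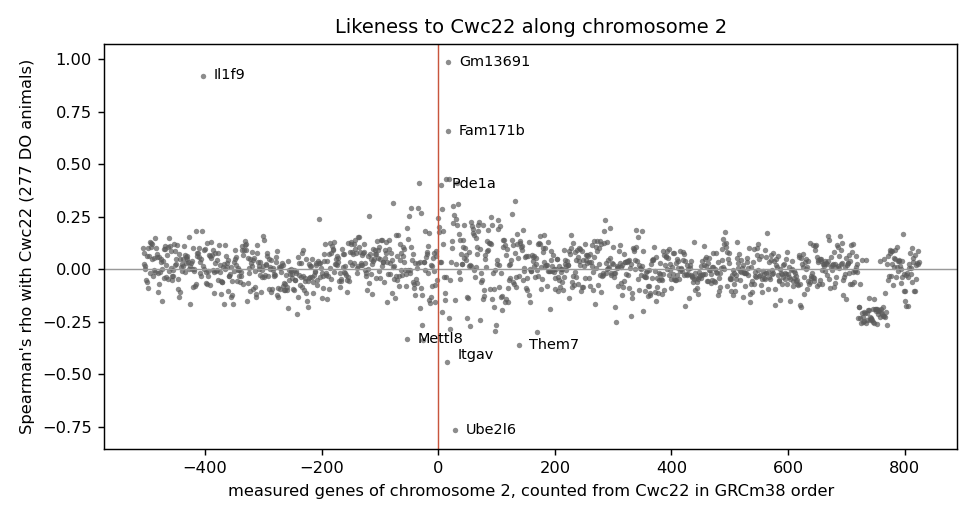
Spearman's rho with Cwc22 over 277 DO animals (vertical) for measured genes of chromosome 2, in GRCm38 order counted from Cwc22 (horizontal, number of genes). Most genes lie near 0, Gm13691 and Il1f9 stand above 0.9, and Ube2l6 stands lowest at -0.766.

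Nearest protein-coding neighbours of the annotated Cwc22 gene had much lower correlations with it than Gm13691 had. On the side before it in GRCm38 order the nearest 4 that the tables hold are Zfp385b, Sestd1, Ccdc141 and the titin gene Ttn, and on the other side Ube2e3, Itga4, Cerkl and Itprid2. Their rho with Cwc22 in the DO was 0.243, 0.065, 0.085 and -0.074, and then 0.199, 0.179, 0.036 and 0.036. Gm13691 lies 17 measured genes from Cwc22, and the measured genes on either side of Gm13691 were Fam171b (rho 0.658) and Calcrl (-0.232). In the founders WSB minus the mean of the other strains was 0.95 ± 0.16 for the zinc finger gene Zfp385b (log2, SE; limma adjusted p = 2.44e-07) and -0.92 ± 0.14 for Sestd1 (limma adjusted p = 1.08e-08), in a contrast that called 54.6% of genes. It did not pass for Ube2e3, a ubiquitin-conjugating enzyme gene (0.08 ± 0.04, adjusted p = 0.0573), or the integrin gene Itga4 (-0.21 ± 0.14, adjusted p = 0.220). Of the 20 nearest protein-coding genes, 14 were tested there, and 4 were higher and 1 lower in WSB, beside 26.9% and 27.7% of all genes, with a median of 0.04 beside -0.01 over all genes. Among these, Pde1a, a phosphodiesterase gene, was higher by 0.94 ± 0.12 (adjusted p = 3.35e-11) and had the highest rho of those measured, 0.402. For block, 16 of the 20 were tested, and 7 were higher and 2 lower in block 2, beside 22.9% and 25% of all genes. Itga4 was at 0.31 ± 0.08 (limma adjusted p = 0.000236), Pde1a at 0.50 ± 0.12 (adjusted p = 0.000246) and Itprid2 at 0.09 ± 0.03 (adjusted p = 0.00246).

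Partners of Cwc22 in splicing had correlations with it in the DO near that of the median gene. The 5 exon junction complex core genes had a median rho of 0.063 (-0.125 to 0.132), the 28 Prp19 and intron-binding spliceosome genes 0.020 (-0.145 to 0.119) and the 10 nonsense-mediated decay genes 0.006 (-0.140 to 0.124), beside -0.002 over all genes. Eif4a3, the helicase that Cwc22 binds, had a median signal of 0.777 in the DO (0.559 to 1.13, NCBIM37 table), a far narrower range than that of Cwc22. Its founder values ran wider, from 0.181 to 3.32 with a median of 2.03. Eif4a3 was higher in WSB than in the other strains by 0.27 ± 0.07 (log2, SE; limma adjusted p = 0.000358). Casc3, another core subunit, was higher by 0.23 ± 0.05 (adjusted p = 0.000110), and Magohb was at -0.43 ± 0.14 (adjusted p = 0.00580). In all, 3 of the 5 core genes were higher and 1 lower in WSB (median 0.14 beside -0.01 over all genes), in a contrast that called 26.9% of all genes higher and 27.7% lower. Of the 28 spliceosome genes 8 were higher and 6 lower (median 0.01), near those shares, with the ubiquitin ligase gene Prpf19 at -0.88 ± 0.05 (adjusted p = 1.71e-33), Isy1 at 0.31 ± 0.05 and the helicase gene Dhx15 at 0.24 ± 0.04. Of the 10 decay genes 3 were higher and 2 lower (median 0.02), with Smg9 at 0.60 ± 0.07 (adjusted p = 1.72e-14) and Upf3a at -0.26 ± 0.05. Members of each list moved both ways in WSB. The spliceosome and decay medians lay near that of all genes, and the core median was higher, at 0.14 over 5 genes.

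Genes of these lists also passed for diet and for sex in the DO. Diet called 4 of the 28 spliceosome genes higher and 17 lower on high fat (median -0.07 beside 0.01 over all genes), beside 30.2% and 28.7% of all genes. Among these the helicase gene Dhx15 was at -0.17 ± 0.03 (log2, SE; limma adjusted p = 1.16e-09), Snrnp200, the helicase that unwinds paired spliceosomal RNAs, at -0.22 ± 0.03 (adjusted p = 1.35e-09) and Crnkl1 at -0.17 ± 0.03 (adjusted p = 1.55e-08). Of the core genes 2 were higher and 1 lower, with Casc3 at -0.21 ± 0.02 (limma adjusted p = 4.63e-15), Magoh at 0.11 ± 0.03 and Magohb at 0.16 ± 0.05. Of the decay genes 1 was higher, Upf3a at 0.22 ± 0.04 (limma adjusted p = 7.10e-09), and 5 were lower, among them Upf3b at -0.26 ± 0.04 and the endonuclease gene Smg6 at -0.16 ± 0.03. Cwc22 itself was at -0.31 ± 0.25 in this fit, with the values by block and by rank given above. In males against females, 13 spliceosome genes were higher and 3 lower (median 0.04 beside 0.00), beside 30.6% and 32.2% of all genes, with Crnkl1 at 0.23 ± 0.03 (log2, SE; limma adjusted p = 1.11e-14), Plrg1 at 0.19 ± 0.02 and Dhx15 at 0.20 ± 0.03. Of the 5 core genes 3 were higher and 1 lower, with Magohb at -0.42 ± 0.05 (limma adjusted p = 3e-13), Casc3 at 0.07 ± 0.02, Rbm8a at 0.08 ± 0.03 and Eif4a3 at 0.07 ± 0.03 (adjusted p = 0.0152). Of the 10 decay genes 5 were higher and 0 lower, with Smg5 at 0.25 ± 0.03 (limma adjusted p = 2.79e-18), Smg8 at 0.18 ± 0.03 and Upf3b at 0.24 ± 0.04. In the founder diet contrast Dhx16 alone of these 3 lists passed in limma, at -0.13 ± 0.03 (adjusted p = 7.45e-05). That contrast called 23.2% of 13536 genes.

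In the block contrast the same lists moved by small amounts beside the 1.72 of Cwc22. Eif4a3 was at -0.04 ± 0.03 (log2, SE; limma adjusted p = 0.264), and 2 of 5 core genes were higher in block 2, Magoh at 0.15 ± 0.03 and Rbm8a at 0.11 ± 0.03, while Casc3 was at 0.04 ± 0.03 (adjusted p = 0.238). Over all genes this contrast called 22.9% higher and 25% lower. Of the spliceosome genes 8 were higher and 5 lower, from -0.19 to 0.20, with Crnkl1 at 0.19 ± 0.03, the helicase gene Dhx16 at -0.19 ± 0.03 and Snrnp200 at 0.18 ± 0.04. Of the decay genes 3 were higher and 1 lower, with the kinase gene Smg1 at 0.28 ± 0.04, Upf2 at 0.30 ± 0.04 and Upf3b at 0.21 ± 0.05.

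Strains alone gave another ranking of likeness. Over the 8 founder strain means (log2), the 5 highest Pearson r among 13535 genes were Gm2810 (0.991), Gm5940 (0.990), Gm10076 (0.981), ENSMUSG00000092478, which has no symbol in the annotation (0.980), and Atp6v0c-ps2 (0.977). With 8 points and 1 strain far from the rest, such an r mainly records that a gene was high in WSB. Gm5940 had a median of 0.806 in WSB (0.176 to 1.69) and at most 0.119 in the others. Gm10076 had a median of 1.24 in WSB (0.494 at the lowest) and at most 0.385 in the others. The other 3 overlapped between WSB and other males. Annotated on chromosome X, Gm5940 had a rho of 0.268 with Cwc22 in the DO, and Gm10076, on chromosome 14, had -0.041.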

How the data were processed

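Per the submitters' processing notes, reads were handled with CASAVA 1.8.0, Bowtie 0.12.8 and RSEM 1.2.1, with NCBIM37 (mm9) as the named assembly. Founder reads were aligned to strain genomes, and DO reads both to NCBIM37 and to individualized genomes. The deposited values are a signal that the authors normalized per animal, not counts. Its upper quartile is 1 in the NCBIM37 and founder tables and 2.40 to 2.89 in the individualized table, whose divisor the sources used here do not name. All columns were matched to a label. Of 286 labelled DO animals, 9 were not analysed here.

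Dividing by the step between low values gave whole units, within 0.1, for 99.9% of low values in either DO table and for 82.7% in the founder table. For the same animals the individualized table gave 1.90 times the units of the NCBIM37 table in total and 2.00 times for Cwc22 (medians), so a unit cannot be 1 read in both, and the count models on the individualized table rest on that unit. An edgeR fit on the NCBIM37 units was added after seeing the data, as were the diet by block contrast and the alternatives within strains. Recovered totals averaged 145.8 M counts (individualized), 76.2 M (NCBIM37) and 8.55 M (founders). The p-values measure the spread between animals.

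Tests were limma 3.58.1 with a trend on log2(count equivalents + 1), that is the signal times 1 constant per table. Genes with 10 or more in at least 66 DO or 8 founder animals were kept. The models held 4 sex and diet groups plus block, or 16 strain and diet groups. Tests are two-sided, with Benjamini-Hochberg adjustment over all genes and a threshold of 0.05. Alternatives used edgeR 4.0.16, DESeq2 1.42.0 and rank permutation. The code was tested on simulated data. Each animal is 1 replicate, since the deposited tables hold 1 column per animal although the labels list several runs.

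Cwc22, the lists and the rules were chosen with earlier results of these data known. Named genes are Cwc22, the 5 highest and 5 lowest by DO rho, the 5 highest by founder r, the 4 nearest neighbours on either side, Eif4a3 and the 3 members of smallest p of each splicing and decay list per contrast. For founder diet the member that passed is given, and 1 gene is not reported here. Other neighbours were named after their values were seen. Cell type markers were 30 genes in 7 lists. GENCODE M21 supplied symbols for 16056 identifiers of the individualized, 16031 of the NCBIM37 and 22760 of the founder table.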

Additional observations from a re-analysis of the deposited data

Results flagged for a closer look

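In 3 of the 16 founder groups of 8 males, 1 male stood apart from the rest for Cwc22 by Dixon's criterion, which marks about 1 group in 20 by chance. In 129S1 on high fat the highest male lay at 1.26 and the next at 1.05. In AJ on chow the highest lay at 1.36 and the next at 0.993. In PWK on chow the highest lay at 0.913 and the next at 0.702. All 3 remained within the range of the 7 strains other than WSB.

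The diet change of Cwc22 in the DO differed between blocks by 1.47 on the log2 scale (limma adjusted p = 0.0180), and 1.46 in the NCBIM37 table (adjusted p = 0.0157) and 1.502 by edgeR on recovered units (adjusted p = 0.00529). The permutation of percentile ranks gave a difference of 25.1 points (two-sided p = 0.00052).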

How the results depend on the processing

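No paired analysis was possible because the labels state no tie between animals of different groups, also where a female and a male share the digits of their names. For the DO diet change, block 1 alone gave -1.29 (limma adjusted p = 0.00937), block 2 alone gave 0.17 (adjusted p = 0.659) and rank permutation gave -12.4 points (p = 0.0006). The sex difference turned to -0.10 in block 1 alone. The sex by diet interaction turned to -0.00996 without the 2 animals whose genotyped sex differs from the letter of their name, to -0.56 in block 1 alone and to -2.91 points by rank permutation. None of these sex or interaction values passed, and the cause was not tested. Rescaling to shared genes moved the DO animals at or below the highest male of the other strains from 39.7% to 9.03% and those at or above the lowest WSB male from 13.7% to 51.6%. The block difference and the NZO diet change kept direction and call under every alternative run for them. The rho values of Gm13691, Il1f9, Ube2l6 and Itgav kept their sign in the NCBIM37 table and in each block, and that of Itgav moved to -0.22 in block 2. The median founder male had 106.5 Cwc22 counts, and how far depth sets the founder spread was not tested.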
